A study of Drosophila melanogaster with 12 samples.

Results

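The telomeric retrotransposons HeT-A, TAHRE, TART-A, TART-B and TART-C were followed through 12 libraries of small RNAs bound to the PIWI proteins Aub, Ago3 and Piwi in Drosophila ovaries. They are 5 of the 126 transposon consensus sequences counted in every library, taken by name, and the family was chosen by its read copies and sense shares in these same libraries, so the differences given below are descriptions and carry no test. All 5 had reads of both orientations in every library and passed the filter of a mean of at least 100 read copies, which 123 of the 126 sequences passed. The study's own classes put HeT-A (FBgn0004141), TAHRE (FBgn0069343) and TART-B in its germline-dominant class and give no class to TART-A and TART-C, and the 3 TART sequences carry 1 shared gene identifier (FBgn0004904).

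The first set of flies was aubRK, with the allele pair aub[QC42/HN2] and the transgene UAS-3xHA:aub[RK] driven by nos-Gal4, in which the arginines of Aub that become methylated are replaced by lysines, set against aubWT, of the same alleles and driver with UAS-3xHA:aub[WT], and, for Ago3, y[1] w[1] with its own aub gene. Both transgenic genotypes lack endogenous Aub and express a 3xHA-tagged Aub from the germline driver nos-Gal4. The second set was csulRM50 (csul[RM50]), a loss of Capsuleen, the fly PRMT5 methyltransferase that acts on Aub, set against w1118. Ovaries came from yeast-fed flies aged 2 to 5 days. RNA was taken from Aub, Ago3 and Piwi immunoprecipitates of aubRK and aubWT, from Ago3 of y w, and from Aub and Ago3 of csulRM50 and w1118. The first set used antibodies of one laboratory and the second set antibodies of another. The study's methods also cite a different earlier report for the making of the libraries of each set. Differences between genotypes are therefore taken within a set only. Each of the 11 groups had 1 library of pooled ovaries apart from Piwi aubRK with 2, and a genotype cannot be told apart from the stock that carried it.

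PIWI-interacting RNAs (piRNAs) guide PIWI proteins to transposon transcripts. In the germline, Aub mostly carries piRNAs antisense to transposons and Ago3 mostly sense piRNAs, and slicing by one protein makes the substrate of the other in the ping-pong cycle, while Piwi enters the nucleus and silences transcription. Drosophila has no telomerase: its chromosome ends are kept by head-to-tail arrays of non-LTR retrotransposons of the Jockey clade, which are silenced by piRNAs in the ovary. HeT-A, the most common of them, encodes a Gag protein that takes RNA to chromosome ends but no reverse transcriptase. TAHRE has a HeT-A-like Gag and untranslated regions and also a reverse transcriptase, and TART encodes both a Gag and a reverse transcriptase. TART-A, TART-B and TART-C are subfamilies of TART that differ in sequence.

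For orientation, the BDGP6 annotation was searched for copies in the sequenced reference strain. It held 41 insertions with the names of the 5 elements, of which 27 were HeT-A (longest 6084 bp), 10 TART-A (longest 12349 bp), 3 TART-B (longest 486 bp), 1 TART-C (989 bp, chromosome 4, 1288110 to 1289098) and 0 TAHRE. Of these, 32 lay in arrays at chromosome ends. The left end of X held 9, all on the plus strand, between 103614 and 122812, the right end of chromosome 4 held 22, all on the minus strand, between 1272114 and 1345937, and the right end of 2R held 1 HeT-A. The other 9 were inside chromosomes and were at most 700 bp long. The reads were aligned by the authors to consensus sequences and not to these insertions, and the telomeres of the stocks used were not analysed here.

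The libraries held 1338017 to 47217032 read copies on transposons, and levels are given as CPM, counts per 1000000 of these. At the shallowest library 3 read copies are worth 2.24 CPM, far under every member's level. Wilson 95% intervals of sense shares, the percentage of a member's copies that have the orientation of the transposon's own transcript, were at most 4.85 points to either side. These intervals cover counting error only, and PCR copies of 1 molecule enter them as if they were separate molecules. Apart from 3 libraries with a random barcode (Ago3 aubWT, the second Piwi aubRK and Piwi aubWT), each distinct entry of a file stood for 5.57 to 39.1 copies, fewest entries being behind the Aub aubRK and aubWT libraries. Transposons of the soma-dominant class, which are known for expression in the somatic follicle cells, took 4.77% of copies in Ago3 aubRK, 0.483% in Ago3 aubWT and 2.11% in Ago3 y w. In the other sets of libraries that share an antibody and a control this class took 0.603% in Aub aubRK against 0.307% in Aub aubWT, 5.95% and 6.15% in Piwi aubRK against 4.93% in Piwi aubWT, 0.686% in Aub csulRM50 against 0.232% in Aub w1118, and 0.698% in Ago3 csulRM50 against 0.259% in Ago3 w1118. Of a list of 8 follicle-cell elements (ZAM, gypsy, Idefix, Tabor, gtwin, Quasimodo, gypsy5 and gypsy10) 0 were without reads in any library and their sum ran from 0.789% (Aub aubWT) to 8.18% (first Piwi aubRK library). The part of follicle-cell piRNAs in the results below was not tested.

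Together the telomeric elements took 3.63% to 9.61% of all transposon copies. HeT-A was the steadiest of them. Its level ran from 14834 CPM in Aub csulRM50 to 43528 CPM in Ago3 aubWT, a 2.93-fold range that ranked 106th widest of 123 elements. TAHRE varied 4.43-fold (rank 80), from 4103 CPM in Aub csulRM50 to 18170 CPM in Ago3 w1118. The median element varied 5.72-fold, so both lay under it. The TART sequences lay above it. TART-A varied 16.7-fold (rank 14), from 1016 CPM in Aub aubWT to 16935 CPM in Ago3 y w. TART-C varied 318-fold (rank 2), from 55.0 CPM in Aub aubWT to 17498 CPM in Ago3 w1118. TART-B varied 1122-fold, the widest range of all 123 elements, from 52.3 CPM in Aub aubWT to 58662 CPM in Ago3 csulRM50. These ranges span both sets and all proteins, so they are not differences between genotypes. Within the first set TART-B ran from 52.3 CPM to 1753 CPM (Ago3 y w). Within the second set it ran from 6695 CPM (Aub w1118) to 58662 CPM. The Aub aubWT levels of TART-B and TART-C rest on 33 and 77 distinct entries. The 2 Piwi aubRK libraries, the only replicates, are numbered in the labels with no word on whether they came from separate flies. They differed 1.07-fold for HeT-A, 1.08-fold for TAHRE, 1.05-fold for TART-A, 1.03-fold for TART-B and 1.29-fold for TART-C. When the 12 levels of a member were put in order, neighbours lay within that member's own pair difference at 5 of 11 steps for HeT-A and for TAHRE, 2 for TART-A, 3 for TART-B and 4 for TART-C. Counts were not divided by length, since the consensus lengths are not given, so the levels of different members, and the shares of TART or telomeric copies given further on, describe read copies and not abundance per length.

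**Figure D1:**
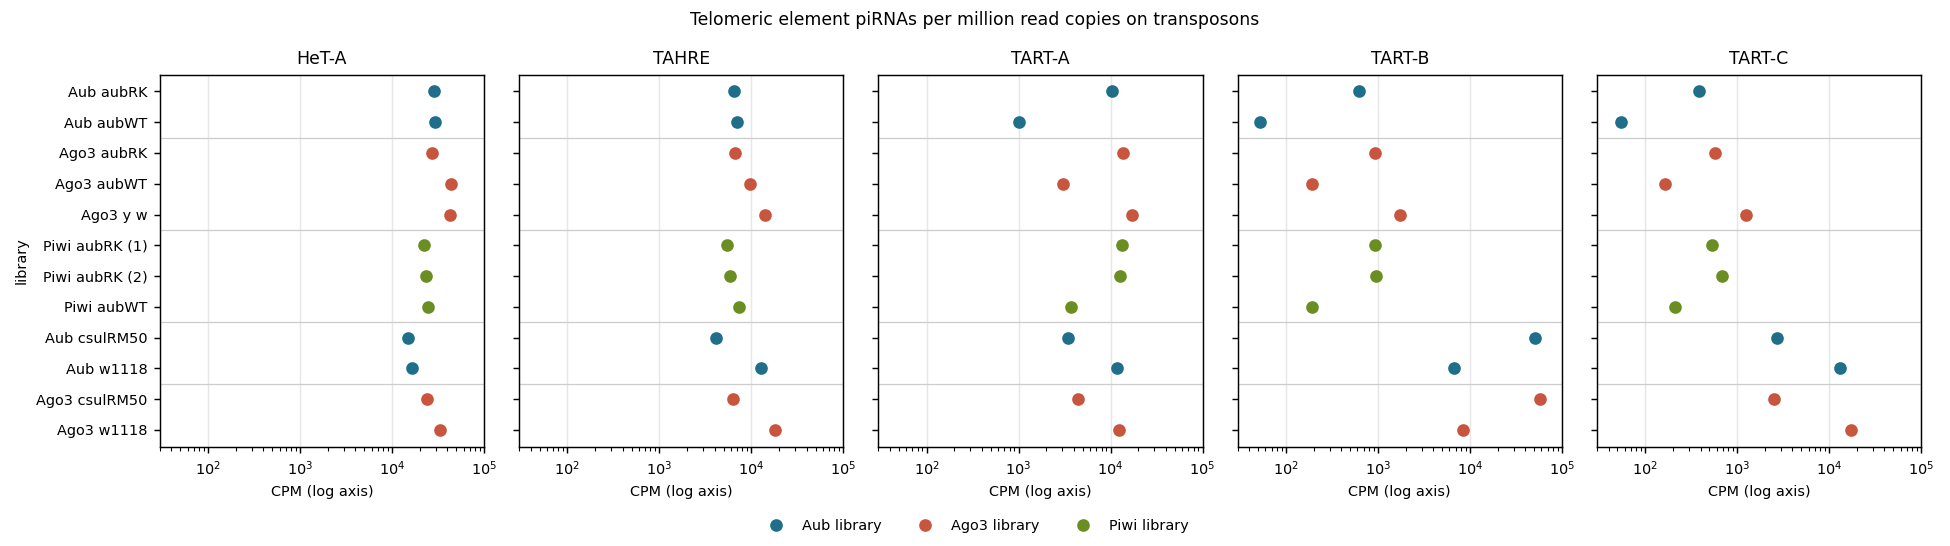
Level of each telomeric element in the 12 libraries, in CPM of transposon read copies on a log axis, with one panel per member, one point per library and colours for the bound protein. HeT-A stays between 14834 and 43528 CPM throughout, while TART-B spans 52.3 CPM in Aub aubWT to 58662 CPM in Ago3 csulRM50. The ends of this TART-B span belong to different sets of libraries.

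In Aub of aubRK ovaries, TART piRNAs were several times more abundant than in Aub of aubWT ovaries, while HeT-A and TAHRE were nearly level. TART-A stood at 10404 CPM in aubRK against 1016 CPM in aubWT, 10.2-fold. TART-B stood at 618 CPM in aubRK against 52.3 CPM in aubWT, and TART-C at 389 CPM against 55.0 CPM. By contrast HeT-A had 28789 CPM in aubRK against 29456 CPM in aubWT, and TAHRE 6526 CPM against 6984 CPM. Relative to the median log2 change of all elements (0.18 here), the changes were 3.18 for TART-A, 3.36 for TART-B, 2.62 for TART-C, -0.21 for HeT-A and -0.27 for TAHRE. Hence 3 of 5 members lay over 2-fold above the median, against 6.50% of all 123 elements, and 0 lay over 2-fold below it, against 8.13%. The aubWT values of TART-B and TART-C rest on only 33 and 77 distinct entries. Over entries, whose intervals cover counting error only, the log2 ratio of aubRK to aubWT was 4.19 (3.68 to 4.69) for TART-B, 2.17 (1.81 to 2.54) for TART-C and 2.99 (2.89 to 3.08) for TART-A.

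The Piwi libraries of the same genotypes gave the same order. TART-A stood at 13289 and 12679 CPM in the 2 aubRK libraries against 3673 CPM in aubWT, TART-B at 921 and 950 CPM against 193 CPM, and TART-C at 530 and 686 CPM against 210 CPM. HeT-A had 22085 and 23699 CPM in aubRK against 24780 CPM in aubWT, and TAHRE had 5491 and 5925 CPM against 7425 CPM. For each TART sequence both aubRK libraries lay above the aubWT library by more than they differed from each other. The relative log2 changes were 1.83 ± 0.05 for TART-A, 2.28 ± 0.03 for TART-B, 1.52 ± 0.26 for TART-C, -0.11 ± 0.07 for HeT-A and -0.37 ± 0.08 for TAHRE (SD over the 2 aubRK libraries, with 1 aubWT library). The count was again 3 of 5 members above 2-fold, against 8.13% of all elements, and 0 below, against 3.25%.

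Ago3 of aubRK ovaries also held more TART and less HeT-A and TAHRE than Ago3 of aubWT ovaries. TART-A had 13710 CPM in aubRK against 3009 CPM in aubWT, TART-B 924 CPM against 193 CPM, and TART-C 582 CPM against 165 CPM. HeT-A had 27510 CPM in aubRK against 43528 CPM in aubWT, and TAHRE 6682 CPM against 9749 CPM. Relative to a median of 0.78 the log2 changes were 1.41, 1.48 and 1.04 for TART-A, TART-B and TART-C, and -1.44 and -1.32 for HeT-A and TAHRE, so 3 members lay above (22.0% of all elements) and 2 below (24.4%). Scaled to the library total without the median, 0 members lay below 2-fold, with log2 changes of -0.66 for HeT-A and -0.55 for TAHRE. The aubRK library carried no barcode and the aubWT library did, which cannot be told apart from the genotype here.

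Set against y w, whose Aub is not a transgene, Ago3 of aubRK gave a different picture for TART. All 5 members were lower in CPM in aubRK. The y w library held 16935 CPM of TART-A, 1753 CPM of TART-B and 1254 CPM of TART-C, more than either transgenic library, and 42234 CPM of HeT-A and 13934 CPM of TAHRE. Relative to the median of -0.16, the log2 changes were -0.14 for TART-A, -0.76 for TART-B, -0.95 for TART-C, -0.46 for HeT-A and -0.90 for TAHRE. With 0 members over 2-fold above (12.2% of all elements) and 0 below (13.0%), no member was called, and on library totals alone 2 were below, TAHRE and TART-C. Among the Ago3 libraries of this set, the lowest level of each TART sequence was that of aubWT. As a ratio of CPM each aubRK level lay nearer to y w than to aubWT, though as a difference in CPM those of TART-B and TART-C lay nearer to aubWT. The 2 comparisons share the aubRK library.

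Sense shares of the telomeric elements were also lower in aubRK. In Ago3, HeT-A had 61.0% sense copies in aubRK, 85.1% in aubWT and 79.7% in y w. TAHRE had 55.7% in aubRK, 83.7% in aubWT and 70.8% in y w. TART-A had 33.9%, against 73.4% in aubWT and 62.4% in y w, TART-B had 35.9%, against 79.3% and 57.2%, and TART-C had 41.6%, against 71.4% and 73.7%. All 5 thus lay over 10 points lower against aubWT and all 5 against y w, and the bound copies of each TART sequence were mostly antisense in aubRK and mostly sense in both others, although by entries TART-B was 47.5% sense in y w. This has to be read against the background, since 58.5% of all elements were over 10 points lower against aubWT and 55.2% against y w (10.6% and 7.20% were higher, 0 members among them). The members' median difference was -29.8 points against aubWT, where the median of all elements was -14.4 points, and -21.3 points against y w, where it was -12.2 points. Counted by entries, HeT-A (-8.67 points) and TAHRE (-8.07 points) lay within 10 points of y w.

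In Piwi the sense share was 56.6% and 60.1% for HeT-A in aubRK against 68.0% in aubWT, 54.7% and 54.8% for TAHRE against 69.0%, and 29.5% and 28.3% for TART-A against 48.2%. TART-B had 31.4% and 25.5% in aubRK against 60.8% in aubWT, and TART-C 35.3% and 33.9% against 55.4%. Every member was lower in both aubRK libraries than in the aubWT library. The mean differences were -9.68 ± 2.46, -14.2 ± 0.07, -19.3 ± 0.84, -32.3 ± 4.18 and -20.8 ± 1.04 points for HeT-A, TAHRE, TART-A, TART-B and TART-C (SD over the 2 aubRK libraries), which put 4 members over 10 points lower, where 10.3% of all elements were, and 0 higher, where 9.48% were. HeT-A was the one not called. The median over all elements was -1.21 points.

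Aub itself did not share this pattern for every member. HeT-A had 55.0% sense copies in aubRK against 50.3% in aubWT, TART-A 30.6% against 27.9%, and TAHRE 43.7% against 51.2%. TART-B had 37.0% in aubRK against 72.4% in aubWT, and TART-C 18.9% against 47.2%. The last pair were the 2 of 5 members over 10 points lower (13.8% of all elements), with 0 higher (13.0%), and they are the members with few entries in aubWT. Over entries TART-C differed by -13.8 points, and TART-B was under the minimum of 50 for a share.

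**Figure D2:**
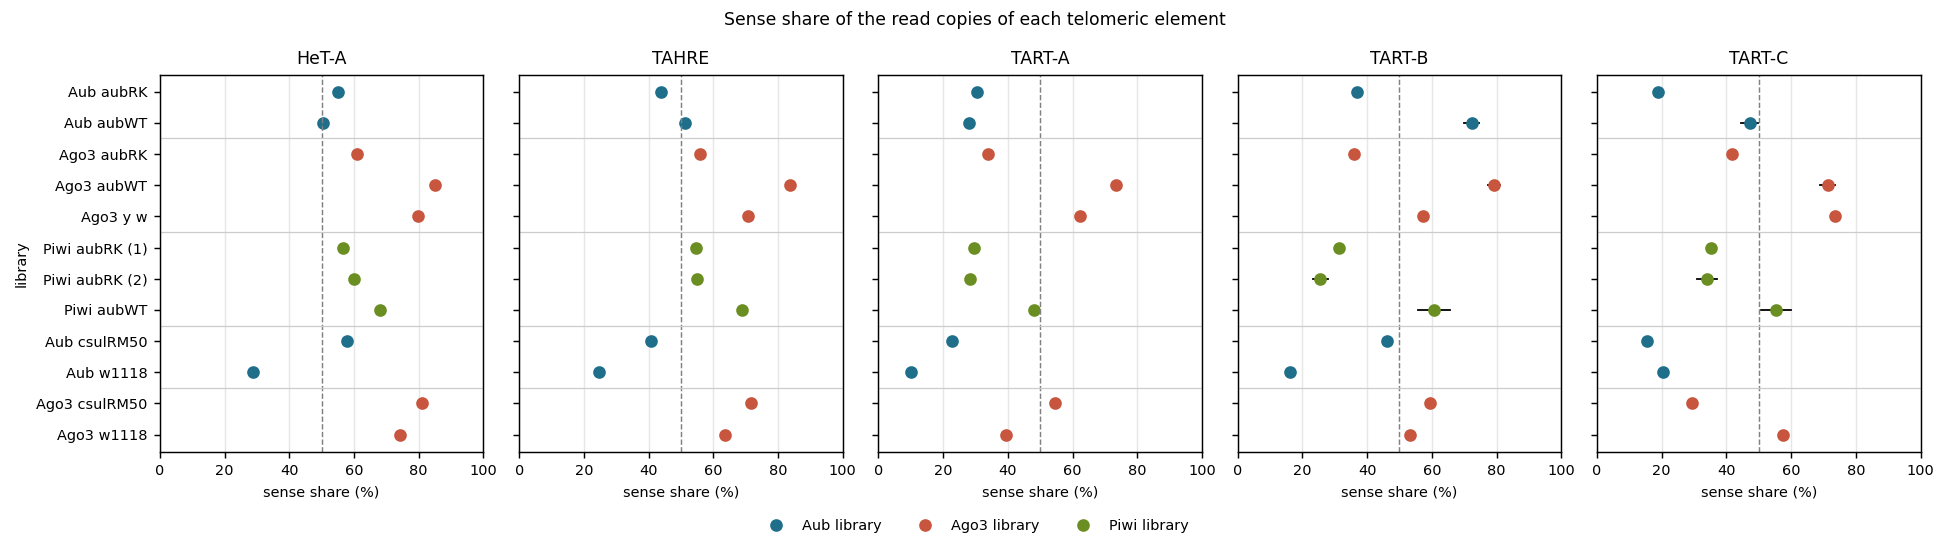
Percentage of each member's read copies that are sense, by library, one panel per member and one point per library, coloured by bound protein. Black lines are Wilson 95% intervals, most of them narrower than the point, and the dashed line marks 50%. In Ago3 all 5 members lie lower in aubRK (33.9% to 61.0%) than in aubWT (71.4% to 85.1%) or y w (57.2% to 79.7%).

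Splitting the levels by orientation shows which copies differed. For HeT-A in Ago3 the sense copies were fewer and the antisense copies more numerous in aubRK than in aubWT: 16785 CPM sense against 37035 CPM (0.453-fold), and 10725 CPM antisense against 6493 CPM (1.65-fold). TAHRE went the same way, 0.456-fold for sense and 1.86-fold for antisense. In the TART sequences both orientations were higher in aubRK, antisense more so. TART-A sense copies were 2.10-fold and antisense copies 11.3-fold the aubWT level in Ago3, 9059 CPM antisense in aubRK against 799 CPM in aubWT. TART-B stood at 2.17-fold sense and 14.8-fold antisense, and TART-C at 2.06-fold and 7.22-fold. Piwi gave 2.12-fold sense and 4.85-fold antisense for TART-A, 2.26-fold and 8.84-fold for TART-B, and 1.80-fold and 4.24-fold for TART-C. In Aub, TART-A was nearly even, 11.2-fold sense and 9.86-fold antisense, whereas TART-B (6.03-fold and 27.0-fold) and TART-C (2.83-fold and 10.9-fold) leaned to antisense. Against y w the Ago3 sense copies of the members were 0.262-fold to 0.499-fold, and the antisense copies 0.726-fold to 1.42-fold. The median element differed there by -1.03 in sense and 0.18 in antisense on the log2 scale, and relative to it the sense copies of HeT-A (0.03) and TART-A (-0.15) were level with the background, with TAHRE at -0.37, TART-B at -0.56 and TART-C at -0.90. All of these folds are ratios of CPM, and in Ago3 the median element itself was 1.08 higher in antisense and 0.07 higher in sense on the log2 scale in aubRK than in aubWT.

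**Figure D3:**
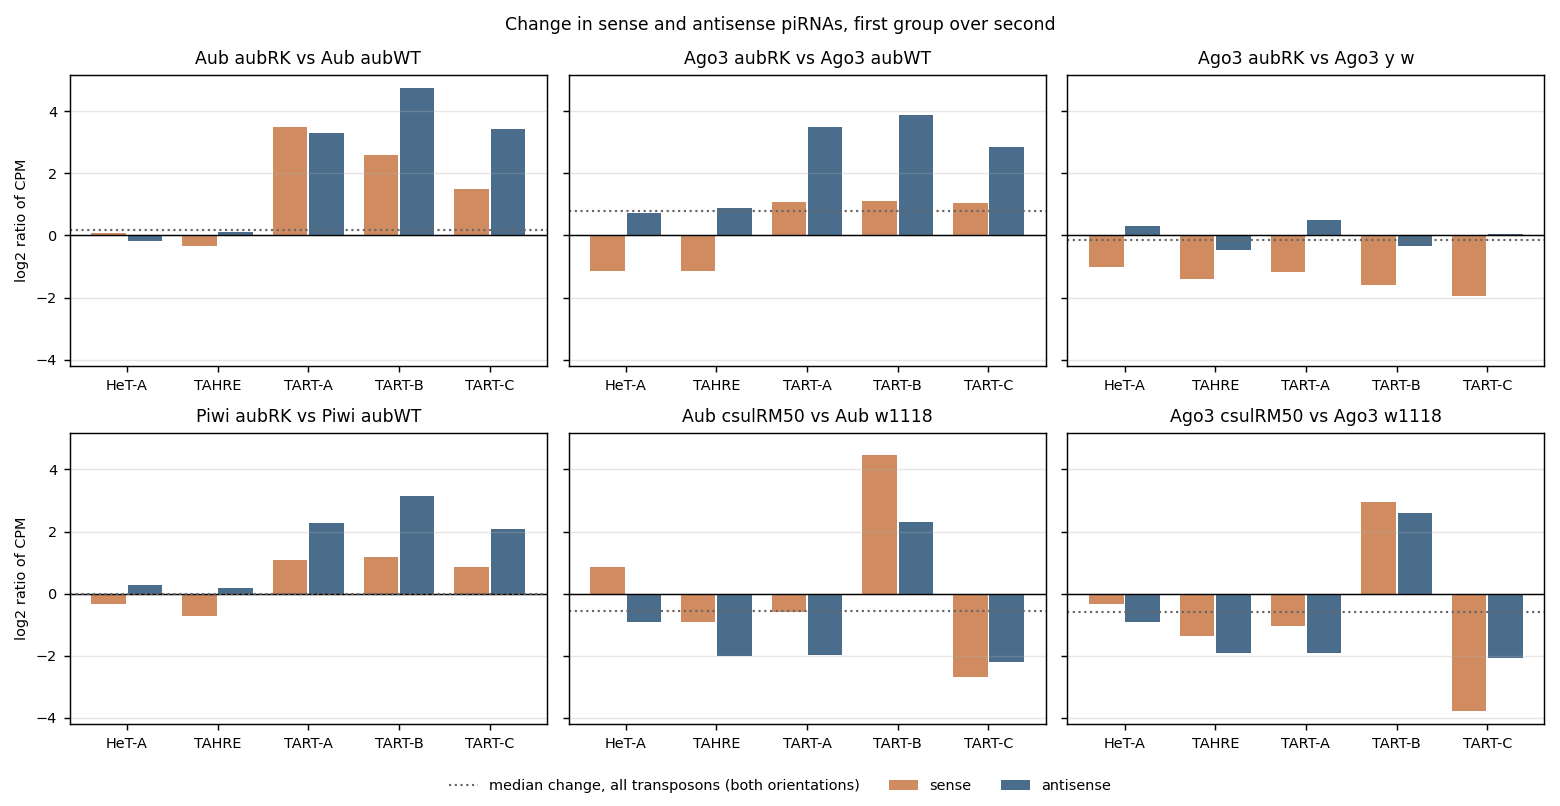
log2 ratio of CPM between genotypes for sense and antisense copies of each member, one panel per comparison (aubRK over aubWT or y w, csulRM50 over w1118, Piwi aubRK as the mean of 2 libraries); the dotted line is the median change of all transposons. Antisense TART copies are above both zero and that line in aubRK over aubWT for all 3 proteins (11.3-fold for TART-A in Ago3), and TART-B is the one TART sequence above w1118 in csulRM50.

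In csulRM50 ovaries TART-B was the one telomeric element far above its w1118 level, and TART-C the one farthest below it. Aub held 51421 CPM of TART-B in csulRM50 against 6695 CPM in w1118 (a log2 ratio of 2.94), and Ago3 held 58662 CPM against 8385 CPM (a log2 ratio of 2.81). Relative to the median of all elements (-0.57 in Aub and -0.60 in Ago3), the log2 changes of TART-B were 3.51 in Aub and 3.40 in Ago3. By entries its log2 ratios were smaller, 1.91 (1.88 to 1.94) in Aub and 1.88 (1.85 to 1.91) in Ago3, so part of the difference in copies was in the number of copies per entry. The other TART sequences went the opposite way. TART-C had 2723 CPM in csulRM50 Aub against 13180 CPM in w1118 Aub, and 2492 CPM in csulRM50 Ago3 against 17498 CPM in w1118 Ago3. TART-A had 3472 CPM against 11706 CPM in Aub and 4376 CPM against 12331 CPM in Ago3.

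TAHRE, too, was lower in csulRM50, at 4103 CPM against 12885 CPM of w1118 in Aub and 6261 CPM against 18170 CPM in Ago3. HeT-A was closest to level, at 14834 CPM in csulRM50 against 16562 CPM in w1118 for Aub and 24291 CPM against 33672 CPM for Ago3. In Aub the relative log2 changes of HeT-A, TAHRE, TART-A and TART-C were 0.41, -1.08, -1.18 and -1.70, so that 1 member lay over 2-fold above the median (18.7% of all elements) and 3 below (14.6%). In Ago3 they were 0.12, -0.94, -0.90 and -2.22, with 1 member above (16.3%) and 1 below (11.4%). TAHRE and TART-A lay just short of 2-fold in Ago3, and on library totals without the median 3 members were below. By entries TAHRE was at -0.65 in Aub, under the limit, so that 2 members lay below in Aub.

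Sense shares in Aub were higher in csulRM50 for most members. HeT-A had 58.0% sense copies in csulRM50 Aub against 28.6% in w1118 Aub, TAHRE 40.7% against 24.6%, TART-A 22.6% against 10.2% and TART-B 46.2% against 16.2%. TART-C had 15.3% against 20.4%. These 4 of 5 members were over 10 points higher, where 31.4% of all elements were, and 0 were over 10 points lower, where 1.65% were. By entries the differences were smaller, 15.4 points for HeT-A, 6.58 for TAHRE, 9.92 for TART-A and 16.4 for TART-B. For HeT-A the larger sense share went with 8597 CPM sense in csulRM50 against 4740 CPM in w1118, and 6237 CPM antisense against 11822 CPM. TART-B sense copies were 21.9-fold and antisense copies 4.93-fold the w1118 level.

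In Ago3 the shares of HeT-A, TAHRE and TART-B differed less than in Aub, and those of TART-A and TART-C more, counted in copies. HeT-A had 81.0% in csulRM50 against 74.3% in w1118, TAHRE 71.6% against 63.6%, TART-A 54.5% against 39.5%, and TART-B 59.3% against 53.2%. TART-C had 29.3% in csulRM50 Ago3 against 57.5% in w1118 Ago3, its sense copies being 0.0725-fold and its antisense copies 0.237-fold the w1118 level. TART-A was the 1 member over 10 points higher (13.2% of all elements) and TART-C the 1 over 10 points lower (17.4%). By entries TART-A differed by 6.50 points, under the limit and less than in Aub (9.92 points), and TART-C by -13.0 points.

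The split of TART copies over the 3 sequences is given for both sets side by side, without a comparison between sets. In the 8 libraries of aubRK, aubWT and y w, TART-A took 84.9% to 91.2% of all TART copies, although the TART total of these libraries ran from 0.112% to 1.99% of transposon copies. In csulRM50 TART-A took 6.03% in Aub and 6.68% in Ago3, against 37.1% and 32.3% in w1118. TART-B took 89.2% in Aub and 89.5% in Ago3 of csulRM50, against 21.2% and 21.9% in w1118. TART-C took 4.73% and 3.80% in csulRM50, against 41.7% and 45.8% in w1118. Within a stock, Aub and Ago3 gave nearly the same split. TART-B alone made up 67.2% of all telomeric copies in Aub csulRM50 and 61.1% in Ago3 csulRM50. Reads that fit more than 1 TART sequence may have been counted for each of them, and their number was not determined.

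**Figure D4:**
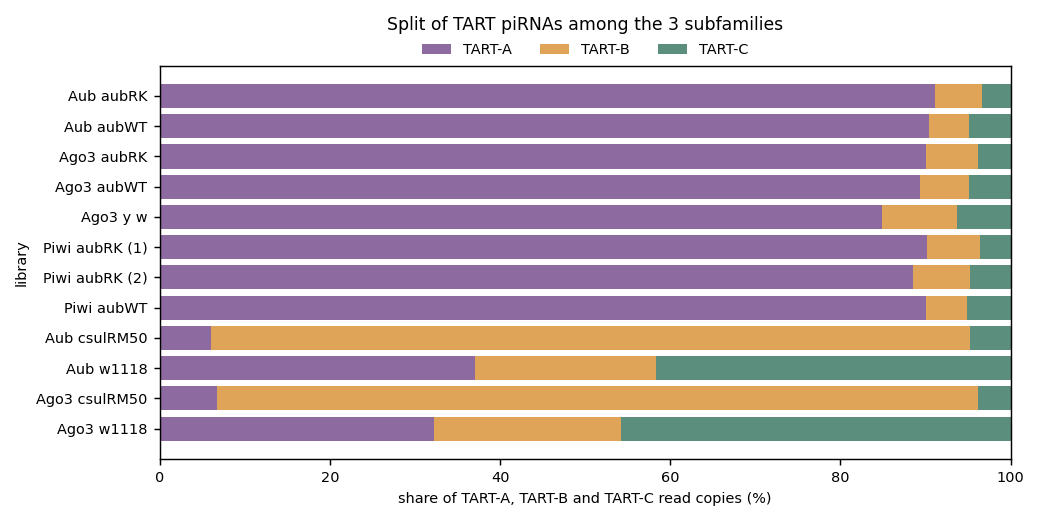
Share of all TART read copies that fell on TART-A, TART-B and TART-C in each library, in percent, as bars stacked to 100%. TART-A takes 84.9% to 91.2% in the libraries of aubRK, aubWT and y w, TART-B 89.2% and 89.5% in csulRM50, and w1118 holds all 3 with TART-C at 41.7% and 45.8%.

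Within a genotype the proteins were then set side by side. In w1118 every member had more sense copies in Ago3 than in Aub. The differences, Ago3 minus Aub, were 45.7 points for HeT-A (74.3% against 28.6%), 39.0 for TAHRE, 29.3 for TART-A, 36.9 for TART-B and 37.2 for TART-C, so 5 of 5 were over 10 points higher, against 72.7% of all elements. By entries the same differences were 18.9, 15.3, 14.4, 16.6 and 15.6 points. In csulRM50 they were 23.0, 30.9, 31.9, 13.1 and 14.0 points for the members in the same order, again 5 of 5, against 56.2% of all elements. By entries the csulRM50 differences were 10.4, 10.7, 11.0, 5.03 and 7.56 points, 3 of them over 10 points.

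In aubWT the differences between Ago3 and Aub were 34.8 points for HeT-A, 32.5 for TAHRE, 45.5 for TART-A, 6.85 for TART-B and 24.3 for TART-C, and 4 of 5 were over 10 points, against 44.7% of all elements. In aubRK they were 6.06, 12.0, 3.37, -1.08 and 22.7 points, and 2 of 5 were, against 8.94% of all elements. By entries TAHRE differed by 3.23 points in aubRK, under the limit, and TART-B by 7.41 points. HeT-A for example had 61.0% sense copies in aubRK Ago3 against 55.0% in aubRK Aub, but 85.1% in aubWT Ago3 against 50.3% in aubWT Aub. The median difference of all elements between Ago3 and Aub was -3.13 points in aubRK and 7.71 points in aubWT. The smaller gap of HeT-A and TART-A in aubRK thus lay on the side of Ago3, whose sense shares were the lower ones, while the Aub shares of both differed by under 5 points.

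Piwi carried more sense HeT-A and TAHRE than Aub in aubWT, by 17.7 and 17.8 points, and more sense TART-A, by 20.3 points. TART-C differed by 8.22 points and TART-B by -11.7 points. This makes 3 members over 10 points higher, where 17.6% of all elements were, and 1 lower, where 37.8% were, the TART-B value resting on 33 Aub entries and 385 Piwi copies. In aubRK the differences were 3.41 points for HeT-A, 11.0 for TAHRE, -1.69 for TART-A, -8.55 for TART-B and 15.7 for TART-C, with 2 of 5 over 10 points higher (6.78% of all elements). By entries TAHRE differed by 9.79 points in aubWT and 2.24 points in aubRK, both under the limit, and TART-C by 15.1 points in aubWT. The Piwi aubWT and second Piwi aubRK libraries carried a barcode and the Aub libraries did not, so their entries are unlike measures. The median difference of all elements between Piwi and Aub was -4.96 points in aubWT and -5.15 points in aubRK.

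HeT-A was more than 50% sense in 11 of 12 libraries, Aub w1118 being the exception, and TAHRE in 9, whereas all transposons together were in 1, Ago3 aubWT. Both exceeded the sense share of their library's transposons as a whole in all 12. TART-A was mostly sense in 3 libraries, TART-B in 6 and TART-C in 4, and they exceeded their library's share in 7, 11 and 8. These counts are of copies. By entries TART-B was 47.5% sense in Ago3 y w and 49.9% in Ago3 w1118, and TART-A 45.0% in Ago3 csulRM50. The other way, TAHRE in Aub aubRK was 43.7% sense by copies and 52.4% by entries. The TART-B share in Aub aubWT rests on 33 entries.

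Among the 20 other Jockey-clade elements that passed the filter, of 21 counted in the files, the aubRK and aubWT Aub libraries gave 1 over 2-fold above the median and 2 below. G7 was the highest (2.87 relative to the median, 52.3 CPM in aubRK against 5.43 CPM in aubWT), and BS the lowest (-1.52). The aubWT level of G7 lay under that of TART-B in the same library, which rests on 33 distinct entries, so it too is limited by depth. In Ago3 the list held 3 above and 6 below against aubWT, from G5A (1.72) to X-element (-1.67), and 0 above and 5 below against y w, from Doc (0.92) to BS3 (-1.87). In Piwi it held 0 above and 1 below, from Doc4-element (0.95) to X-element (-1.65). In csulRM50 it held 4 above and 5 below in Aub, from Juan (1.71) to G5 (-2.44), and 3 above and 3 below in Ago3, from Juan (1.72) to G5 (-2.81). The median of the list lay between -0.55 and -0.06 in the 6 comparisons. These are non-LTR elements related to the telomeric ones that insert elsewhere in the genome.

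The elements whose levels over the 12 libraries were most like those of a member were found by Pearson's r of log2(CPM + 1). For HeT-A they were baggins (r = 0.814) and Rt1a (0.624), for TAHRE gypsy8 (0.862) and Doc3-element (0.812), and for TART-A gypsy7 (0.808) and Porto1 (0.733). For TART-B they were 3S18 (0.869) and 1731 (0.867), and for TART-C Ivk (0.944) and invader2 (0.933). Spearman's rho of these pairs ran from 0.531 (TAHRE and Doc3-element) to 0.937 (TART-C and invader2), and without the 2 libraries farthest from the member's median r ran from 0.465 (HeT-A and Rt1a) to 0.879 (TART-C and Ivk). Among the members, TART-B and TART-C had r = 0.825 (rho = 0.937), HeT-A and TAHRE 0.520 (0.657), and TART-A and TART-B 0.285 (0.315). HeT-A went the other way from TART-B, with r = -0.486 (-0.434), and from TART-C, with -0.347 (-0.378). These values describe 12 points, and the libraries fall into separate sets. Libraries of 1 genotype share a stock, and all share the scaling to 1 total. Without the csulRM50 libraries, r was 0.973 for TART-B and TART-C, 0.825 for TART-A and TART-B and -0.246 for HeT-A and TART-B. Without Ago3 aubWT and Aub aubWT it was -0.365 for TART-A and TART-B. Without Ago3 aubWT and Aub csulRM50, HeT-A had -0.156 with TART-B and -0.160 with TART-C. Without the w1118 libraries HeT-A and TART-C had -0.436. Reads that fit more than 1 TART sequence may count on both sides of a TART pair.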

How the data were processed

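Ovary small RNAs were sequenced after immunoprecipitation of Aub, Ago3 or Piwi. Per the study's methods and the submitters' processing notes, the authors trimmed adaptors with Cutadapt 2.3, removed an 8-nt random barcode in 3 libraries after collapsing identical reads, and aligned reads with STAR 2.4.2a, with dm3 as genome build, keeping for transposons the best alignments to consensus sequences. The deposited values are whole-number counts per transposon and orientation, not normalized: read copies, and entries, in which identical reads count once in the libraries without a barcode. This reading of the columns rests on their names and values (copies equal entries in the 3 barcoded libraries). A read matching several sequences can count on each, which bears on TART-A, TART-B and TART-C and on TAHRE and HeT-A. PCR duplicates inflate copies without a barcode, while entries there also merge identical piRNAs of separate molecules. In the barcoded libraries reads were collapsed with their barcode, so entries equal copies and identical piRNAs stay apart. Entries are thus unlike measures where a barcoded library is set against one without.

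Copies were scaled to CPM of the library total and compared as log2(CPM + 1), relative to the median change of the 123 elements with a mean of at least 100 copies. This fold understates changes of low elements. A call was over 2-fold, or over 10 points of sense share with at least 50 copies in both libraries (interval level 95%, floor 3 counts). The mean of both Piwi aubRK libraries was used. No p-value was computed, since the members were chosen on these values and all but 1 group had 1 library. The members and lists were chosen with earlier results of these data known. Genes named were the members, for each the 2 other transposons with the highest r, and the highest and lowest of the Jockey-clade list. Alternatives were entries, no centring, TMM (edgeR 4.0.16) and DESeq2 1.42.0 size factors, used for scaling only (R 4.3.3), a pseudocount of 10, a minimum of 1000 or none, each orientation alone, a minimum of 500 or a limit of 20 points for shares, and leaving out each Piwi aubRK library. The code (Python 3.11.15, pandas 2.3.3) was tested on simulated data. Insertions came from the BDGP6 annotation, and no coordinates of different builds were combined.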

Additional observations from a re-analysis of the deposited data

Results flagged for a closer look

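The change of sense share between aubRK and aubWT ran in opposite directions in the bound proteins for HeT-A and TART-A, counted in read copies. HeT-A differed by 4.63 points in Aub, against -24.1 points in Ago3 and -9.68 points in Piwi. TART-A differed by 2.63 points in Aub, against -39.5 points in Ago3 and -19.3 points in Piwi. By entries the Aub difference of HeT-A was 0.65 points, with overlapping Wilson 95% intervals (54.8% to 56.4% in aubRK and 54.2% to 55.6% in aubWT). That of TART-A was 3.40 points, and its intervals overlapped too (32.0% to 34.3% in aubRK and 27.0% to 32.6% in aubWT). No direction in Aub is read from entries for either member. Each of these rests on 1 library per group, or 2 for Piwi aubRK, and the difference between proteins was not tested.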

How the results depend on the processing

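Of 192 counts of members recomputed under another setting, 159 stayed within 1.5 times and 33 did not, and of 413 values of single members recomputed, 0 that were past a limit changed sign. With entries in place of copies, 2 members were lower in csulRM50 Ago3 (1 with copies). Sense shares by entries gave 1 lower member in aubRK Aub (2 with copies), 3 lower in aubRK Ago3 against y w (5), 2 higher in csulRM50 Aub (4), 0 higher in csulRM50 Ago3 (1), 1 higher in Ago3 than Aub in aubRK (2) and 3 in csulRM50 (5), 1 higher in Piwi than Aub in aubRK (2), and 0 lower in Piwi than Aub in aubWT (1). Without centring on the median, 0 members were lower in aubRK Ago3 against aubWT (2 with it), 2 against y w (0), and 3 in csulRM50 Ago3 (1). TMM gave 1 lower against aubWT and 3 in csulRM50 Ago3, DESeq2 size factors 2 there, and a pseudocount of 10 CPM 3 there. Sense copies alone gave 1 higher in aubRK Ago3 against aubWT (3 with both orientations) and, in csulRM50 Aub, 2 higher (1) and 1 lower (3). Antisense copies alone gave 0 lower in aubRK Ago3 against aubWT (2) and 3 in csulRM50 Ago3 (1). A minimum of 500 copies left 2 lower sense shares in aubRK Piwi (4) and 0 lower in Piwi than Aub in aubWT (1). A limit of 20 points left 3 lower in aubRK Ago3 against y w, 2 lower in aubRK Piwi, 2 higher in csulRM50 Aub, 0 higher in csulRM50 Ago3, 1 higher in Ago3 than Aub in aubRK and 3 in csulRM50, 0 higher in Piwi than Aub in aubRK, and 1 higher and 0 lower in aubWT. Leaving out either Piwi aubRK library, 0 to 1 members were lower in Piwi than Aub in aubRK. The causes were not tested. The median change of all elements, 0.78 in aubRK Ago3 against aubWT on library totals, was 0.36 with TMM and 0.02 with size factors. With 1 library in 10 of 11 groups, spread between ovaries of 1 genotype is unknown. Among the members, TART-B and TART-C in aubWT are the values most limited by depth. No paired analysis was possible because the groups compared share only replicate number 1.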
